A study of Anguilla anguilla with 11 samples.

Results

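Transcripts of the Angiopoietin-Tie and VEGF receptor systems were examined in rete tissue of European eels (Anguilla anguilla). The rete mirabile is a dense bundle of parallel arterial and venous capillaries that works as a countercurrent exchanger for the swimbladder. Of 45974 predicted transcripts, 22 carry a name or description of these systems in the deposited annotation. They are the receptors tie1 (1 transcript), tie2 (2 transcripts), vgfr2, vgfr3 and vgfr4 (1 transcript each), the receptor-type phosphatase ptprb (3 transcripts) and the ligands angp1 (4 transcripts), angp2 (2 transcripts), angp4 (1 transcript), vegfc (3 transcripts), vgfaa (2 transcripts) and vegfa (1 transcript). The name vgfr1 was searched for as well, and none of the transcripts analysed here carried it. Transcripts of 1 name may be separate gene copies or pieces of a single gene, and each is given with its identifier. Reads of near-identical copies may be divided between them, and the level of a single transcript of a shared name is uncertain for that reason.

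Tissue was taken from 5 yellow eels, the growth stage of the freshwater life, and from 6 silver eels, the stage that leaves for the spawning migration. All were female by the methods, were caught in Lake Constance and were held in freshwater, and their ages are not given. Rete vessels were rinsed with heparinised saline until no blood was seen, and polyA-selected RNA of whole rete tissue was sequenced as 1 library per eel. The library titles carry 2 prefixes, FG1835 (yellow eels 1 to 3, silver eels 1 to 3) and FG1907 (yellow eels 4 and 5, silver eels 4 to 6), which are called library sets here. What a prefix stands for is not stated. The methods name 2 sequencers with different read layouts but not which library was read on which, so the sequencer and other features of a set cannot be told apart.

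Endothelial cells line all vessels and carry these receptors on their surface. In mammals, angiopoietin-1 from the cells around the vessel activates the receptor kinase Tie2 and keeps the endothelium quiet and tight, whereas angiopoietin-2 from the endothelium itself can act against it. Tie1 is a related kinase that pairs with Tie2, and the phosphatase VE-PTP, the product of ptprb, removes phosphate from Tie2. VEGF-A drives growth and permeability of vessels mainly through VEGF receptor 2, and VEGF-C acts through VEGF receptor 3, which is known best from lymphatic vessels. Zebrafish have a further receptor, kdr-like, and vgfr4 of the eel annotation carries that description.

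The counts assigned to transcripts summed to 9360429 to 12438185 per library (median 10555968). The relative expression value, the unit used throughout for levels, is the raw count divided by the size factor of the library. Endothelial markers were looked up in the tissue. Of 25 marker names 11 had rows, and 18 of their transcripts had a mean above 50, with summed relative expression values of 30975 to 59573 per eel. Markers of epithelium, which the gas gland or the swimbladder wall would bring, summed to 18410.5 to 26204.8 per eel. This sum rested mostly on keratins, with means of 11708 for k1c18 (g5911) and 4791 for k2c8 (g5912). The highest transcript of each other epithelial name found averaged between 1.91 for esrp1 (g1184) and 137 for esrp2 (g20671), with 3.23 for epcam (g7485). Endothelial cells line all vessels, so their markers cannot tell the rete from gas gland or swimbladder wall. The share of each tissue was not tested. In edgeR, 0 of 23981 tested transcripts differed between the stages at an adjusted p under 0.05, with 515 at an unadjusted p under 0.05, against 25 adjusted calls in DESeq2 and 0 in limma. Between the library sets 9250 transcripts (38.6%) differed in edgeR. On the first principal component the eels of FG1835 lay between -78.8 and -53.7 and those of FG1907 between 74.6 and 121, apart from silver eel 5 at 11.4. Silver eel 5 also stood apart from all other eels on the second principal component, at -127 where the other 10 lay between -5.20 and 36.6. Results are therefore also given within each set and without this eel. In such whole tissue, fewer cells of a type and less RNA per cell cannot be told apart.

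All receptors were clearly expressed in every eel and had overlapping levels in yellow and silver eels. Levels of different genes are not ranked against each other, because the lengths of the predicted transcripts were not used. The VEGF receptor 2 transcript vgfr2 (g8472) averaged 6609 ± 1686 (mean ± SD over 11 eels) in this unit. Its values were 8318, 6463, 7667, 5571 and 6142 in yellow eels 1 to 5, and the silver eels ran from 2552 over a median of 6536 to 8983. The lowest value belonged to silver eel 5, and the other 10 eels stayed within 5571 to 8983, so that the stages overlapped almost fully. The log2 difference of silver against yellow was -0.10, with a 95% interval of -0.69 to 0.48 in edgeR.

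Vgfr3 (g5396), the receptor for VEGF-C, stood at 1259.8, 1707, 2302, 1071 and 1294 in yellow eels 1 to 5. Silver eels had 507 at the lowest, 1576 at the median and 2180.5 at the highest. Again the lowest was silver eel 5 and the highest of all 11 was a yellow eel, and the log2 difference was 0.03 (interval -0.67 to 0.73). The kdr-like receptor vgfr4 (g9390) had 3867, 3755, 5373, 4395 and 2553 in yellow eels 1 to 5 and 1342, 3089 and 6796 as lowest, median and highest silver value. The silver eels held both the highest and the lowest value of this receptor, with silver eels 1 and 2 above every yellow eel and silver eels 5 and 6 below every yellow eel. Its log2 difference was -0.12 (interval -0.89 to 0.65).

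For the Tie receptors the spread between eels of 1 stage was likewise larger than any gap between the stages. The transcript of tie1 (g2753), the partner of Tie2, had 2925, 2864, 2422, 1920.3 and 1674 in yellow eels 1 to 5 and 1033, 2192 and 3214 as lowest, median and highest silver value. The 3 yellow eels of FG1835 were above the 2 yellow eels of FG1907, and the same order was not complete among silver eels, where silver eel 6 of FG1907 exceeded silver eel 1 of FG1835. Tie1 differed by -0.16 on the log2 scale (interval -0.76 to 0.43).

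The angiopoietin receptor was represented by a pair of transcripts that differed in which eels were high. Tie2 (g1122) had 5151, 4062, 4943, 7611 and 3758 in yellow eels 1 to 5, and its silver values had a lowest of 1887, a median of 5886 and a highest of 9031. Silver eels 1, 2 and 6 and yellow eel 4 formed the upper end, across both stages and both sets. Tie2 (g4749) had 3633, 4140.5, 4245, 1941 and 2677 in the yellow eels, and 771, 3727 and 4690.1 as lowest, median and highest in silver eels. Here yellow eel 4, which was high in the other tie2 transcript, was the second lowest of all 11 eels, and silver eel 5 was the lowest. Log2 differences between the stages were 0.15 (interval -0.63 to 0.93) for tie2 (g1122) and 0.02 (interval -0.79 to 0.83) for tie2 (g4749). The share of tie2 counts that fell on g4749 ranged from 20.3% in yellow eel 4 to 56.5% in silver eel 3.

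The phosphatase ptprb, which acts on Tie2 and on the endothelial cadherin complex in mice, also overlapped between the stages. Ptprb (g26483) reached 10166.5, 9041, 10777, 7992 and 4201 in yellow eels 1 to 5 and 4579, 8471.6 and 12777 as the lowest, median and highest silver value, a log2 difference of 0.04 (interval -0.63 to 0.71). A second transcript, ptprb (g27454), had 1724, 1239, 2003, 145 and 247 in the yellow eels and 246, 749 and 1191 as lowest, median and highest in silver eels. Its yellow eels split into 3 values of at least 1239 and 2 values of at most 247, which is the split of the library sets, and its stage difference of -0.59 had a wide interval of -1.96 to 0.78. The third transcript, ptprb (g35735), lay between 2.26 and 38.2 in all eels.

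**Figure D1:**
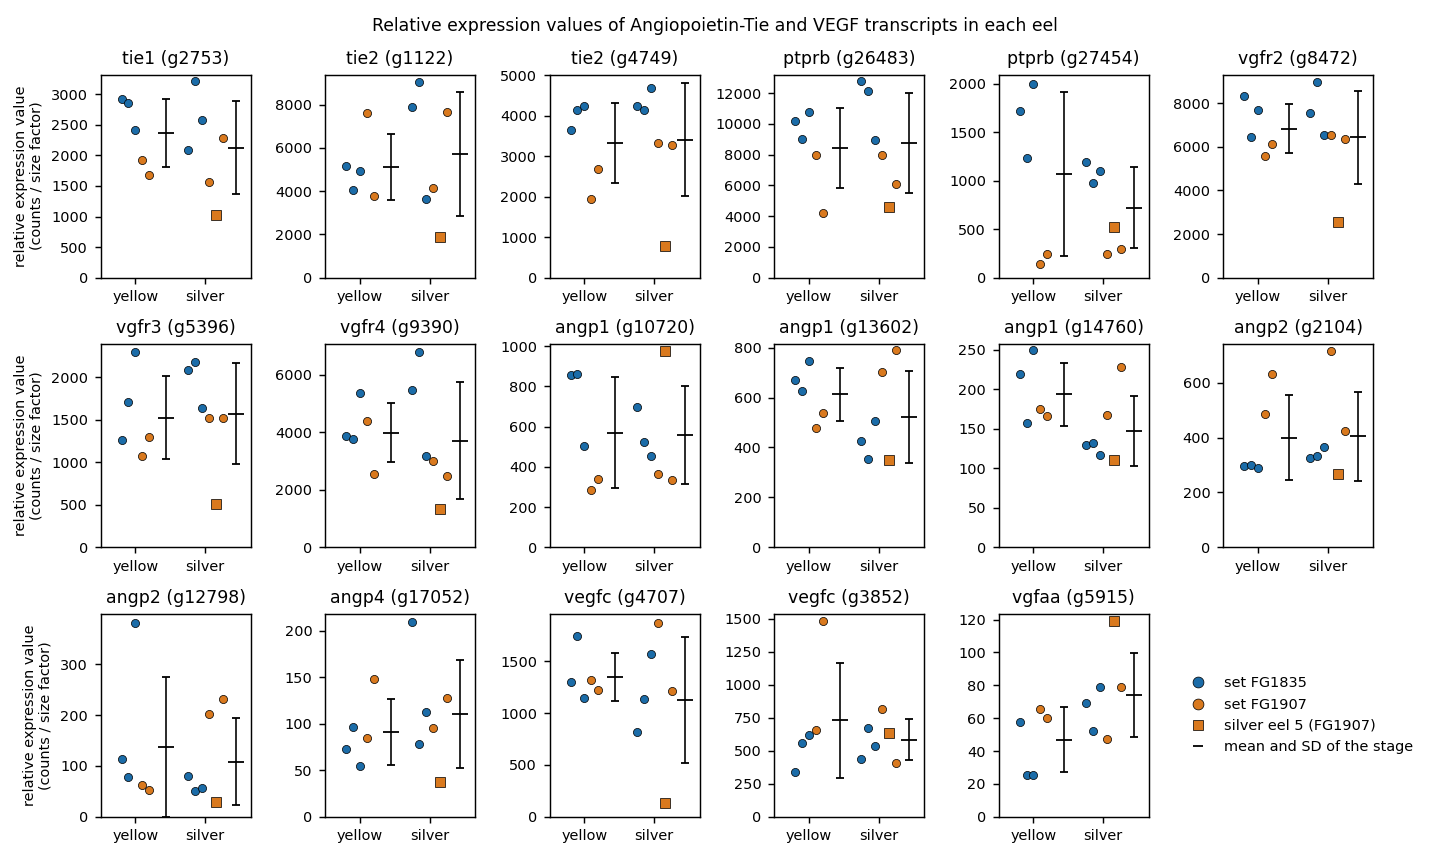
Relative expression values (counts divided by size factor, linear axes from 0) of the 17 transcripts of the Angiopoietin-Tie and VEGF systems with a mean above 50, by stage. Each point is 1 eel, blue for set FG1835 and orange for FG1907, with silver eel 5 as a square, and bars show mean and SD of 5 yellow or 6 silver eels. The stages overlap in every panel, and the square is the lowest of the 11 eels in 12 of the 17 panels.

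Angiopoietin-1, the activating ligand of Tie2, had 3 transcripts with a mean above 50. Angp1 (g10720) had 858, 861, 505, 286 and 341 in yellow eels 1 to 5, and silver eels ran from 335 over 489.5 to 976. The highest eel was silver eel 5, in contrast to the receptors, where it was at or near the bottom. Angp1 (g13602) had 672, 625, 748, 477 and 539.7 in yellow eels and 352, 466 and 792 as lowest, median and highest in silver eels, and angp1 (g14760) had 219.6, 157, 250.0, 175 and 166 against 111, 131 and 228. In angp1 (g13602) 3 of 6 silver eels lay below every yellow eel and silver eel 6 above all, and in angp1 (g14760) 4 of 6 silver eels lay below every yellow eel. Stage differences were -0.04 (interval -0.82 to 0.75), -0.24 (interval -0.78 to 0.30) and -0.41 (interval -0.94 to 0.12) on the log2 scale for angp1 (g10720), angp1 (g13602) and angp1 (g14760). The fourth transcript, angp1 (g11921), ranged from 9.27 to 90.5.

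Angiopoietin-2, the ligand that can counter angiopoietin-1, was measured by 2 transcripts. Angp2 (g2104) stood at 295, 298, 287, 487 and 632 in yellow eels 1 to 5 and at 267, 348 and 717 as lowest, median and highest in silver eels. The stages had nearly equal means of 400.0 ± 154 and 405 ± 161 (mean ± SD over 5 yellow and 6 silver eels), and the log2 difference was 0.01 (interval -0.63 to 0.65). The second transcript, angp2 (g12798), varied widely between eels, with 113, 78.4, 381, 62.2 and 51.9 in the yellow eels and 29.2, 69.2 and 233 as lowest, median and highest silver value. Yellow eel 3 and silver eels 4 and 6 made up its upper end. The stage difference of -0.36 had an interval of -1.71 to 0.99. Angp4 (g17052), which activates Tie2 in humans, lay between 37.6 and 209.9 in all eels, with silver eel 5 lowest and silver eel 1 highest, and differed by 0.26 (interval -0.59 to 1.12).

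VEGF-C, the ligand of VEGF receptor 3, was present as 2 well-covered transcripts. Vegfc (g4707) had 1300.5, 1748, 1149, 1319 and 1227 in yellow eels 1 to 5, while its silver values ran from 134 over 1177 to 1873. The value of 134 in silver eel 5 was far below all others, of which the next lowest was 819 in silver eel 1. Without silver eel 5 the log2 difference of the stages moved from -0.27 (interval -1.23 to 0.68) to -0.04. Vegfc (g3852) had 340.0, 561, 616, 660.4 and 1480.0 in yellow eels, and 409, 583 and 819 as lowest, median and highest in silver eels. Yellow eel 5 stood alone at the top, and all other eels overlapped. Its stage difference was -0.33 (interval -1.05 to 0.38). The third transcript, vegfc (g14523), ranged from 12.2 to 107, with silver eel 6 highest.

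VEGF-A, the main ligand of VEGF receptor 2, was found at low counts. Vgfaa (g5915), named after the zebrafish gene, had 57.7, 25.3, 25.5, 65.6 and 60.3 in yellow eels 1 to 5 and 47.5, 73.8 and 119 as lowest, median and highest in silver eels. The highest 4 of the 11 eels were silver, but silver eels 2 and 4 fell among the yellow ones. Its log2 difference of 0.66 (interval -0.12 to 1.45) had the smallest unadjusted p of all members, 0.0914, and an adjusted p of 1.0 in edgeR. The other transcript of the name, vgfaa (g2174), had 71.6, 58.2, 68.2, 24.9 and 39.9 in yellow eels and 25.5, 37.5 and 48.0 in silver eels as lowest, median and highest, a difference of -0.47 (interval -1.19 to 0.25) in the opposite direction. Vegfa (g7008) had raw counts of 0 to 17 per library and was removed by the expression filter.

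Over the 21 tested members, 0 differed between yellow and silver eels at an adjusted p under 0.05 in edgeR, where the share among all transcripts was 0.0%. None reached an unadjusted p under 0.05 either, against 2.15% of all transcripts tested. DESeq2 (0.0851% of all transcripts) and limma (0.0%) also gave 0 adjusted calls among the members. The median log2 difference of the members was -0.12 and that of all transcripts 0.0046, with 8 of 21 members above 0, against 50.8% of all transcripts. For 0 members did all silver eels lie above or all below the yellow eels, against 0.113% and 0.125% of all transcripts. The intervals differed in width, the narrowest being that of angp1 (g14760), from -0.94 to 0.12 on the log2 scale, and the bounds over all members reached from -1.98 for ptprb (g35735) to 1.86 for vegfc (g14523).

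**Figure D2:**
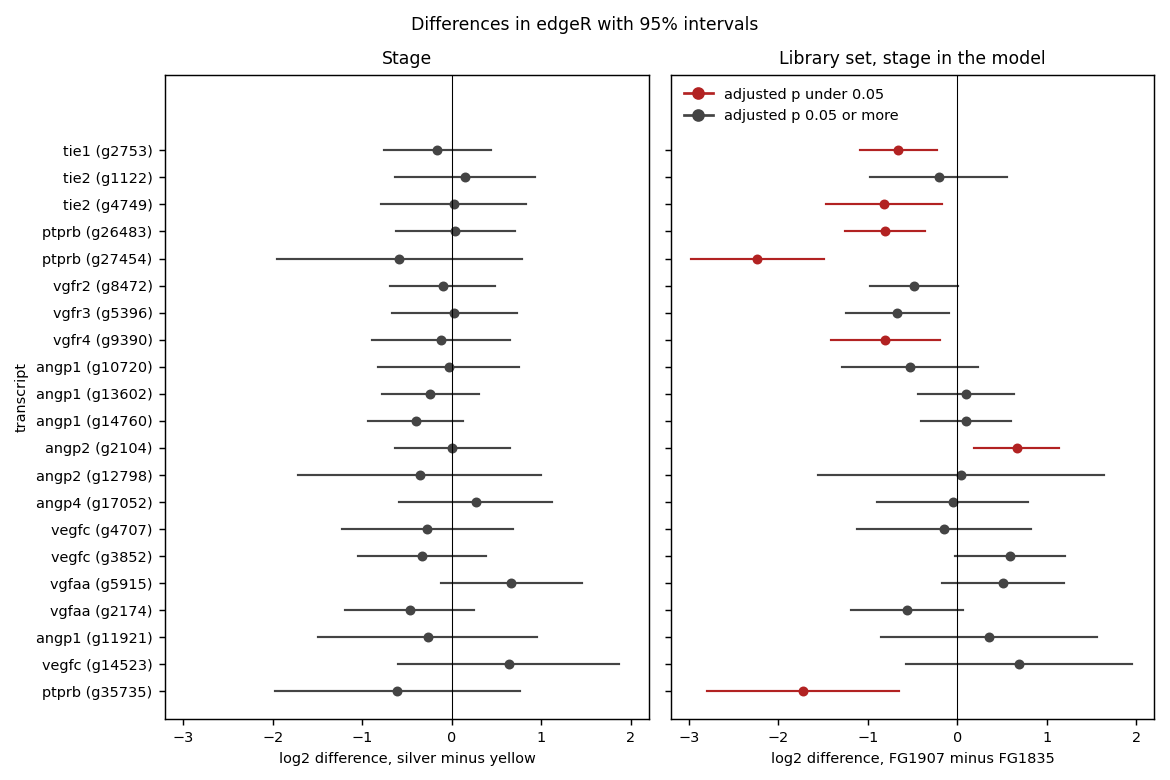
Log2 differences of 21 transcripts in edgeR with 95% intervals, silver minus yellow on the left and FG1907 minus FG1835 with the stage in the model on the right. Red marks an adjusted p under 0.05, which is reached by 0 transcripts for stage and 7 for library set, and all 9 receptor and ptprb transcripts lie below 0 on the right.

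Stage differences were also taken within each library set. In FG1835, 5 of 21 members (23.8%) had an unadjusted p under 0.05 in edgeR, against 7.3% of all transcripts, and all 5 were lower in silver eels. The direction of such calls among all transcripts was not counted in this set. The 5 members, among them 2 of the name angp1, were angp1 (g13602) with -0.68, angp1 (g14760) with -0.74, angp2 (g12798) with -1.60, vgfaa (g2174) with -0.70 and ptprb (g27454) with -0.62 on the log2 scale. None had an adjusted p under 0.05, and the smallest unadjusted p was 0.00641, for angp1 (g13602). In FG1907, 0 of 20 members had an unadjusted p under 0.05, against 2.78% of all transcripts, and the same 5 transcripts had differences of 0.28, -0.01, 1.43, 0.15 and 0.89 in the order named. For the receptors, none of which had an unadjusted p under 0.05 in either set, the stage differences in FG1835 were 0.03 for vgfr2, 0.15 for vgfr3, 0.24 for vgfr4, -0.07 for tie1, 0.52 for tie2 (g1122) and 0.11 for tie2 (g4749). In FG1907 these were -0.18, -0.00097, -0.60, -0.14, -0.32 and 0.09. When the model of all 11 eels held a term for the set, 0 of 21 members had an unadjusted p under 0.05, against 4.06% of all transcripts.

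Whether the stage difference itself differed between the sets was tested with an interaction term. No member had an adjusted p under 0.05 in edgeR (0.0% of all transcripts), and 4 of 21 members (19%) had an unadjusted p under 0.05, against 4.94% of all transcripts. All 4 were more positive in FG1907, against 3.27% of all transcripts, namely ptprb (g27454) with 1.5, angp1 (g13602) with 0.96, angp2 (g12798) with 3.05 and vegfc (g14523) with 2.18 on the log2 scale.

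The 4 transcripts of angiopoietin-1 were also summed. In FG1835 the sums were 1809.6, 1664 and 1524 in yellow eels 1 to 3 against 1303, 1033 and 1096 in silver eels 1 to 3. FG1907 had 1029 and 1056 in yellow eels 4 and 5 against 1263, 1454 and 1419 in silver eels 4 to 6. Thus every silver eel lay below every yellow eel in FG1835 and above every yellow eel in FG1907. This order was shown by 1 of 11 member names (9.09%) and by 0.306% of all names summed in this way. Single angp1 transcripts did not show it in FG1907, where angp1 (g14760) differed by -0.01, angp1 (g13602) in silver eel 5 (352) lay below both yellow eels and angp1 (g10720) in silver eel 6 (335) lay below yellow eel 5 (341). Of the 1454 in silver eel 5, 976 came from angp1 (g10720). The interaction was 1.00 on the log2 scale (standard error 0.25), with an unadjusted p of 0.00222 and an adjusted p of 0.978 in edgeR, so it did not pass. Over all 11 eels the summed stage difference was -0.20 (interval -0.64 to 0.24). The summing of transcripts, the choice of angp1 and the order counted were made after the values had been seen. The mirror order was not counted, and the 0.306% cannot show how unusual the pattern is.

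Between the library sets, tie1, tie2 (g4749), vgfr4 and the ptprb transcripts were lower in FG1907, and vgfr2, vgfr3 and tie2 (g1122) did not pass. All 9 receptor and ptprb transcripts had a negative log2 difference, with a median of -0.80, whereas the 12 tested ligand transcripts had a median of 0.10. Among all transcripts 51.2% lay above 0 and the median was 0.03. At an adjusted p under 0.05 in edgeR 7 of 21 members (33.3%) differed, 6 lower and 1 higher in FG1907, while 38.6% of all transcripts did so, 19% lower and 19.5% higher. DESeq2 called 7 of 22 members (33.6% of all transcripts) and limma 7 of 21 (39.7%), the latter with vgfr3 in place of angp2 (g2104). The share of members called was thus near that of all transcripts, and 6 of the 7 were receptor or ptprb transcripts.

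Ptprb (g26483) averaged 10639.8 ± 1579.7 in the 6 eels of FG1835 and 6168 ± 1809 in the 5 eels of FG1907 (mean ± SD), a log2 difference of -0.81 (standard error 0.20, adjusted p = 0.00910 in edgeR). The second transcript, ptprb (g27454), averaged 1371 ± 402 and 291 ± 142 in the 2 sets, a difference of -2.24 (standard error 0.34, adjusted p = 0.000642 in edgeR). All 5 eels of FG1907 lay below all 6 eels of FG1835 in both transcripts and in tie2 (g4749), 3 of 21 members (14.3%), where 11.1% of all transcripts showed this order. The opposite order held for 0 members and 10% of all transcripts. Summed over its 3 transcripts ptprb still differed by -1.01 (adjusted p = 0.00206 in edgeR). Ptprb (g35735), with few counts, differed by -1.72 (adjusted p = 0.0160).

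Tie1 had 2682 ± 399.9 in FG1835 and 1696 ± 464 in FG1907, a log2 difference of -0.66 (adjusted p = 0.0203 in edgeR). Tie2 (g4749) had 4180.4 ± 338 and 2399 ± 1069.5, a difference of -0.82 (adjusted p = 0.0464), whereas tie2 (g1122) had 5783 ± 2180.3 and 5006 ± 2538, a difference of -0.21 (interval -0.98 to 0.56). Of the pair of tie2 transcripts only g4749 therefore passed the test, and the sum of both did not (-0.54, adjusted p = 0.157). Vgfr4 differed by -0.80 (adjusted p = 0.0376), vgfr3 by -0.67 (adjusted p = 0.0614) and vgfr2 by -0.49 (adjusted p = 0.106, interval -0.98 to 0.0045). The 1 member that was higher in FG1907 was the ligand angp2 (g2104), with 317 ± 29.1 in FG1835 and 505 ± 177 in FG1907, a difference of 0.66 (adjusted p = 0.0311).

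Some of these calls lay near the threshold and were lost on leaving out single eels, at log2 differences of similar size. The adjusted p of tie2 (g4749) rose to 0.0653 to 0.115, with differences of -0.90 to -0.74, on leaving out any 1 of the 5 yellow eels or silver eels 1, 2 or 3, and fell to 0.00834 without silver eel 5. That of vgfr4 rose to 0.0544 to 0.0943, with differences of -0.85 to -0.62, without yellow eel 3 or 5 or silver eel 1, 2, 4, 5 or 6. For angp2 (g2104) it was 0.0530 to 0.0987, with differences of 0.50 to 0.70, without any 1 yellow eel or silver eel 1, 2 or 4. Tie1 lost its call without yellow eel 5 (-0.63, adjusted p = 0.0595) and kept it without any other eel. Without silver eel 5, vgfr3 (-0.47, adjusted p = 0.0464), angp1 (g10720) with -0.96 (adjusted p = 0.00306) and vgfaa (g2174) with -0.76 (adjusted p = 0.0280) passed as well, and vegfc (g3852) passed without silver eel 6, with 0.77 (adjusted p = 0.0442). Ptprb (g26483) and ptprb (g27454) kept their calls whichever eel was left out, and ptprb (g35735) kept it in the 8 of 11 cases in which it passed the expression filter. Within single stages ptprb (g26483) did not pass in edgeR, with -0.84 in yellow eels (adjusted p = 0.0512) and -0.93 in silver eels (adjusted p = 0.105). Ptprb (g27454) passed in both, with -3.18 (adjusted p = 0.00117) and -1.66 (adjusted p = 0.0445). With upper-quartile scaling the median of all transcripts moved from 0.03 to -0.11 and the higher share of all calls from 50.6% to 39.9%, the 9 receptor and ptprb transcripts stayed below 0, vgfr2 passed at -0.63 (adjusted p = 0.0379), vgfr3 at -0.81 (adjusted p = 0.0259), and angp2 (g2104) no longer passed at 0.53 (adjusted p = 0.0712).

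Endothelial markers were measured beside these differences. Of 21 tested transcripts of the list 8 were lower and 2 higher in FG1907 at an adjusted p under 0.05 in edgeR. Among all transcripts 19% were lower and 19.5% higher. The median log2 difference of the list was -0.71. Its summed relative expression values overlapped, with 39956 to 49142 in FG1835 and 30975 to 59573 in FG1907. The endothelial cadherin cadh5 (g17569), with which VE-PTP associates, fell from 3380.2 ± 838 to 1269.8 ± 288 (log2 difference -1.40, adjusted p = 0.000604 in edgeR). In contrast, the tight junction protein cld5 (g6920) had 13447 ± 1401 and 16025 ± 6689 (0.24, adjusted p = 0.536). Counted per 1000 endothelial marker counts, vgfr2 lay between 133 and 192 in FG1835 and between 82.4 and 160.1 in FG1907, tie1 between 49.9 and 71.7 against 26.3 and 47.4, and ptprb (g26483) between 182 and 307 against 109 and 197. Tie2 (g4749) lay between 81.2 and 104 against 24.9 and 69.8, and ptprb (g27454) between 20.8 and 41.3 against 3.57 and 16.97. On this scale the sets did not overlap for tie1, tie2 (g4749) and ptprb (g27454) and overlapped for vgfr2 and ptprb (g26483). They also overlapped for vgfr3, vgfr4 and tie2 (g1122). As relative expression values they overlapped for tie1 and did not for ptprb (g26483). In that unit 11.1% of all transcripts had every FG1907 eel below every FG1835 eel. The share of all transcripts per marker count was not taken. The highest transcripts in the marker sum were cld5, vwf (g357) and egfl7 (g3251), with means of 14619, 11505 and 8679 against 2421 for cadh5. They did not pass between the sets (0.24, -0.34 and 0.55), whereas erg (g2158) and fli1 (g12823) were lower in FG1907 (-1.26 and -2.20). Values per marker count follow the highest transcripts most and are not a correction for endothelial content. The part of cell content in the set differences was not tested.

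**Figure D3:**
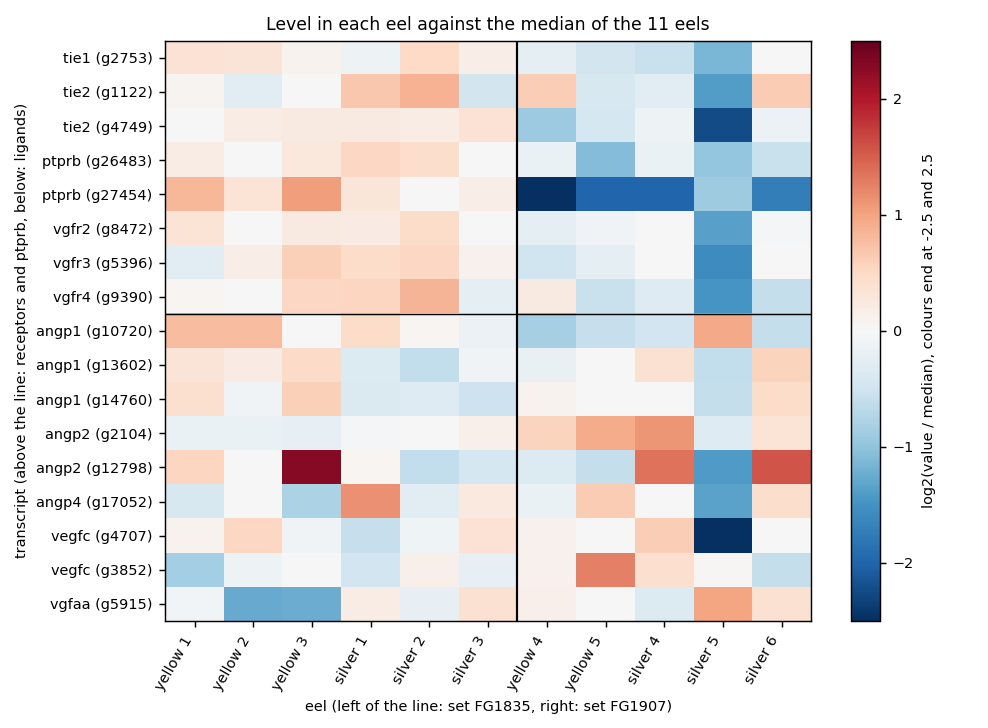
Relative expression value of each transcript (rows) in each eel (columns) as log2 of its ratio to the median of the 11 eels, with the 6 eels of set FG1835 left and the 5 eels of FG1907 right of the vertical line. Blue is below and red above the median. Silver eel 5 is below the median in all 8 receptor and ptprb rows and above it in angp1 (g10720), vgfaa (g5915) and, slightly, vegfc (g3852).

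Silver eel 5 had the lowest level of all 11 eels in 12 of the 17 members with a mean above 50 (70.6%), against 16.3% of all such transcripts. These 12 were vgfr2, vgfr3, vgfr4, tie1, both tie2 transcripts, vegfc (g4707), angp1 (g13602), angp1 (g14760), both angp2 transcripts and angp4. It was highest in 2 members (11.8%), angp1 (g10720) and vgfaa (g5915), against 11.4% of all such transcripts. For vgfr2 its value of 2552 compares with 5571 in the next lowest eel, and for tie2 (g4749) its 771 compares with 1941. The summed endothelial markers were also lowest in this eel, at 30975 against 38354 to 59573 in the other 10. Of the 18 endothelial marker transcripts above 50 it was lowest in 6 and highest in 0. Among all such transcripts it was lowest in 16.3% and highest in 11.4%. Its value of vwf (g357), von Willebrand factor, was 15841, where the mean of all eels was 11505. The summed mural cell markers were highest in it, at 118585 against 50223 to 117273. Of the 23 mural transcripts above 50, however, it was highest in 3 and lowest in 4. The summed blood cell markers were also highest in it, at 5380.3 against 1269 to 4684, and it was highest in 2 and lowest in 0 of 9 transcripts. The part of these cell types in the low receptor values was not tested.

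Without silver eel 5 no receptor passed the stage test. Log2 differences were then 0.06 for vgfr2, 0.21 for vgfr3, 0.05 for vgfr4, -0.02 for tie1, 0.33 for tie2 (g1122), 0.23 for tie2 (g4749) and 0.17 for ptprb (g26483), and 0 of 21 members had an unadjusted p under 0.05 in edgeR, against 2.52% of all transcripts. Vgfr2 and vgfr4 thereby changed sign. In the set comparison tie2 (g1122) moved from -0.21 to 0.02 and vegfc (g4707) from -0.15 to 0.13 on leaving this eel out.

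Ratios within a library do not depend on its scaling. The ratio of angp1 to angp2 counts, summed over the transcripts of each name, was 2.28 to 4.43 in the 6 eels of FG1835. In FG1907 it was 1.37 to 2.16 in 4 eels, below every eel of FG1835, and 4.91 in silver eel 5, the highest of all. By stage the ratio overlapped, at 2.91 ± 1.41 for the 5 yellow and 2.83 ± 1.19 for the 6 silver eels. The part of all ptprb counts on g27454 was 7.41% to 15.6% in FG1835 and 1.78% to 5.54% in FG1907 apart from silver eel 5, which with 10.3% lay among the eels of the other set. With silver eel 5 the sets overlapped in both measures. How often ratios of other transcripts part the sets was not counted. Of all vegfc counts, g3852 took 20.6% to 54.3% in 10 eels and 77.3% in silver eel 5. The ratio of vgfr4 to vgfr2 counts stayed within 0.387 to 0.789, and that of tie2 to tie1 counts within 2.57 to 5.79, with overlap of the stages and of the sets in both.

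**Figure D4:**
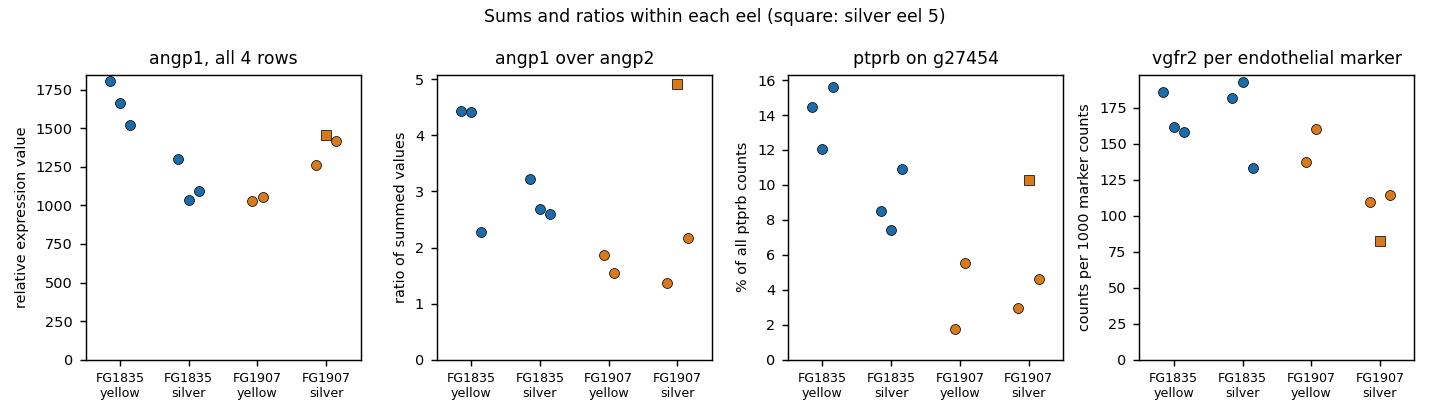
Sums and ratios within each eel, grouped by library set and stage (linear axes from 0). Points are single eels, blue for FG1835 and orange for FG1907, and the square is silver eel 5. The panels show the summed relative expression value of the 4 angp1 transcripts, the ratio of angp1 to angp2, the percentage of ptprb counts on g27454 and vgfr2 counts per 1000 endothelial marker counts. Silver eels lie below yellow eels in the first panel for FG1835 and above them for FG1907.

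Genes that work with these receptors were examined as a list. Of 48 names of co-receptors, ligand-processing proteins, signal transducers and endothelial targets, 39 had rows, and of their 97 tested transcripts 0 passed an adjusted p of 0.05 between the stages in edgeR. At an unadjusted p under 0.05, 1 was higher and 0 were lower in silver eels, against 1.03% and 1.11% of all transcripts, and the median was -0.01. The single transcript was nrp2 (g24359), a neuropilin of low level (13.8 ± 9.73, n = 11 eels), with a log2 difference of 1.63. The co-receptor nrp1a (g10874), a neuropilin-1 that binds VEGF together with VEGF receptor 2, had 4079 ± 1157 and a difference of -0.02. The ligand plgf (g8218), placenta growth factor, had 87.2 ± 30.8 and a difference of -0.41.

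Between the sets, 35 of the 97 transcripts were lower and 5 higher in FG1907 at an adjusted p under 0.05 in edgeR, with a median of -0.67, where 19% of all transcripts were lower and 19.5% higher. Among the signal transducers 20 of 48 were lower and 2 higher. Examples below the receptors are the phospholipase plcg1 (g22230), which VEGF receptor 2 binds, with -1.30 (adjusted p = 0.000354), the catalytic phosphoinositide 3-kinase subunit pk3ca (g4892) with -1.80 and foxo1 (g1734), a transcription factor held back by Akt downstream of Tie2, with -2.54. The kinases akt1 (g3411) with -0.39 and akt2 (g7109) with 0.37 did not pass, and the adaptor nck1 (g6168) was higher with 0.66. Of the 34 transcripts of targets and partners 10 were lower and 2 higher. Dll4 (g16815), the Notch ligand that VEGF induces in tip cells, had 3232 ± 1775 (n = 11 eels) and did not pass (-0.46). Thrombospondin-1, tsp1 (g1692), an inhibitor of vessel growth, had 21784 ± 10061 with 41189 in silver eel 5.

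Mural cells are the main source of angiopoietin-1 in mammals. Of 27 tested transcripts of their markers 0 passed between the stages, with a median log2 difference of -0.21. In FG1907 12 were lower and 1 higher, against 19% and 19.5% of all transcripts. The pericyte marker rgs5 (g3655) had 16433 ± 3600.3 in FG1835 and 5163 ± 2544 in FG1907 (-1.66, adjusted p = 0.00149 in edgeR). The mural markers tagl (g17080) with -0.17, acta (g12122) with -0.40 and mylk (g20981) with 0.54 did not pass. The summed mural markers overlapped between the sets, with 84726 to 108484 in FG1835 and 50223 to 118585 in FG1907. The summed angp1 transcripts differed by -0.24 (interval -0.66 to 0.17). Lymphatic markers were sparse. Prox1 (g4059), the master regulator of lymphatic endothelium, had 62.9 ± 27.3, and lyve1 (g11223) had 120.1 ± 173 with 616 in silver eel 5. Stage differences were 0.25 for prox1, 1.56 for lyve1 and -1.35 for reln (g10390), the last with an unadjusted p of 0.00948 in edgeR. Of 5 tested transcripts 0 passed between the stages. At an unadjusted p under 0.05, 2 were lower in silver eels, against 1.11% of all transcripts. At an adjusted p under 0.05 in edgeR 1 was lower in FG1907, against 19% of all transcripts. Of 16 tested transcripts of epithelial markers, which the gas gland or the swimbladder wall would bring, 0 passed between the stages. Between the sets 4 were lower and 2 higher in FG1907, against 19% and 19.5% of all transcripts. Of 12 tested transcripts of blood cell markers 0 passed between the stages and 1 was higher in FG1907, against 19.5% of all transcripts.

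Across eels the members moved together only in part. Deviations of log2 CPM from the mean of each stage within each set were compared over 11 eels. Log2 CPM are counts scaled to the library total after its adjustment by TMM factors. Both transcripts of a pair were read in the same libraries and so share the depth of each. Among the 28 pairs of receptor and ptprb transcripts above 50 the median Pearson correlation was 0.528 with silver eel 5 and 0.112 without it. The pair of tie2 (g4749) and vgfr2 fell from 0.887 to -0.133, so that its correlation rested on this eel. In contrast, ptprb (g26483) and vgfr4 kept 0.882 and 0.841, and tie2 (g1122) and vgfr4 0.835 and 0.724. Ptprb (g26483) and ptprb (g27454) were opposed, at -0.641 and -0.470.

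The named transcripts most like each member on the same measure were the highest of many correlations and are given as a description over the same 11 eels. Tie2 (g1122) was most like ep15r (g15681) with 0.989, amot (g20914), the angiostatin-binding protein angiomotin, with 0.988 and tmm47 (g1230) with 0.976. The other tie2 transcript, g4749, was most like cld5 (g6920) with 0.989, basi (g35786) with 0.983 and crip2 (g16152) with 0.981, which were 0.845, 0.729 and 0.849 without silver eel 5. Vgfr2 was nearest to the lipid kinase pi42c (g23396) with 0.984 and the tetraspanin cd81 (g22254) with 0.980. Vgfr4 was nearest to the kinesin kinh (g23268) with 0.978, and vgfr3 to the chromatin remodeller chd7 (g26722) with 0.977. Without silver eel 5 these correlations were 0.880, 0.873, 0.965 and 0.904 in the order named. Ptprb (g26483) was nearest to the unconventional myosin myo1d (g8429), with 0.984 over 11 eels and 0.989 without silver eel 5. Tie1 was nearest to pld3a (g29935) with 0.980.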

How the data were processed

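Reads were aligned by the authors to the draft European eel genome with TopHat 2.0.13, secondary alignments were dropped with SAMtools 1.2, and HTSeq 0.6.1p1 gave raw counts per predicted gene. The strand setting is not given in the sources used here. The deposited table holds these counts for 11 libraries and a base mean deposited as a signal, the mean of counts over size factors. Its fold changes and p-values of the authors' own stage comparison were not used. The column FG1935_03 was read as FG1835_03 (yellow eel 3), the only title without a column, and 1 line of the table was not analysed here. The extraction text in the labels names gas gland, but the tissue label and methods name the rete, which was followed.

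Relative expression values are raw counts over median-of-ratios size factors. Members with a mean above 50, the limit used in the study's methods, are given per eel. Stage, library set (stage as covariate) and their interaction were tested with edgeR 4.0.16 (TMM factors, filterByExpr by stage, quasi-likelihood test, Benjamini-Hochberg adjustment over all transcripts) in R 4.3.3, tested on simulated data. Alternatives were DESeq2 1.42.0, limma 3.58.1, other scalings, no filter, robust dispersion, the set as a term, single sets or stages and each library left out. Sums per name and the set term without silver eel 5 were chosen after seeing the data. Nothing states more than 1 library per eel, so p-values rest on the spread between eels. Members, markers and pathway names were chosen with earlier results of these data known. For pathway and marker names, values are those of the transcript with the highest mean.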

Additional observations from a re-analysis of the deposited data

Results flagged for a closer look

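In 5 of 44 groups of a member within a stage, 1 eel lay far outside the range of the others. The rule assumes about 1 such group in 20 by chance, a rate that was not counted over all transcripts. The groups share the same eels, mix both library sets and include several transcripts of 1 name. The 5 groups therefore cannot be judged against that rate and are given as a description. In tie2 (g4749) it was silver eel 5, with a relative expression value of 771 as the lowest of the 6 silver eels. Vegfc (g4707) reached 1748 in yellow eel 2, and vegfc (g3852) reached 1480.0 in yellow eel 5, each the highest of the 5 yellow eels. Angp2 (g2104) was highest among the silver eels in silver eel 4, with 717. Angp2 (g12798) stood at 381 in yellow eel 3. Yellow eel 3 belongs to set FG1835 and the silver eels named here and yellow eel 5 to FG1907.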

How the results depend on the processing

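Low totals limit the small transcripts, vegfa (g7008) most, and 11 eels in 2 library sets leave wide intervals. Stage calls over all transcripts numbered 0 in edgeR, 25 with DESeq2, 2 with the set as a term and silver eel 5 left out (chosen after seeing the data), and 0 to 1 when single eels were left out. With unadjusted p under 0.05 they numbered 515, against 1333 with no filter, 1057 with DESeq2, 973 with the set as a term, 1800 in FG1835 alone and 1472 with the set as a term and silver eel 5 left out. Set calls numbered 9250, against 5849 in yellow eels alone (19080 transcripts tested), 548 in silver eels alone (17749 tested) and 5565 with transcripts of 1 name summed, and at an unadjusted p 11604 against 4744 in silver eels alone and 7162 summed. Members called for the set numbered 7, against 1 in silver eels alone (ptprb g27454) and 3 to 9 when single eels were left out. The interaction gave 0 calls, and 2 with names summed. The cause of these shifts was not tested.

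Stage differences of members, none of them called, changed sign as follows on the log2 scale. In FG1835 alone vgfr2 was 0.027, vgfr4 0.24, vegfc (g3852) 0.10 and vegfc (g14523) -0.57. In FG1907 alone tie2 (g1122) was -0.32, vgfr3 -0.00097, ptprb (g27454) 0.89, angp1 (g10720) 0.87, angp1 (g13602) 0.28, angp2 (g2104) -0.24, angp2 (g12798) 1.43, angp4 -0.43 and vgfaa (g2174) 0.15. With the set as a term ptprb (g27454) was 3.4e-05, angp1 (g10720) 0.12 and angp2 (g2104) -0.0094, and without silver eel 5 as well vgfr2 was 0.064. Limma gave -0.11 for tie2 (g4749) and -0.043 for vgfr3, and upper-quartile scaling -0.00623 for tie2 (g4749). Ranges over single eels left out were -0.13 to 0.17 for ptprb (g26483), -0.22 to 0.058 for vgfr2, -0.032 to 0.33 for tie2 (g1122), -0.37 to 0.053 for vgfr4, -0.12 to 0.23 for tie2 (g4749), -0.085 to 0.23 for vgfr3, -0.52 to 0.10 for vegfc (g3852), -0.28 to 0.16 for angp1 (g10720), -0.23 to 0.24 for angp2 (g2104), -0.72 to 0.49 for angp2 (g12798), -0.023 to 0.52 for angp4, -0.57 to 0.24 for angp1 (g11921) and -0.87 to 0.047 for ptprb (g35735).

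Set differences that changed sign were not called. In yellow eels alone tie2 (g1122) was 0.14, angp1 (g13602) -0.53, angp1 (g14760) -0.41, angp2 (g12798) -1.86, angp4 0.55 and vegfc (g14523) -0.67. Upper-quartile scaling gave -0.040 for angp1 (g13602), -0.039 for angp1 (g14760) and -0.11 for angp2 (g12798), and the last was -0.24 in limma and -0.16 with no stage term. Ranges over single eels left out were -0.50 to 0.024 for tie2 (g1122), -0.45 to 0.13 for vegfc (g4707), -0.041 to 0.26 for angp1 (g13602), -0.059 to 0.21 for angp1 (g14760), -0.32 to 0.55 for angp2 (g12798), -0.34 to 0.24 for angp4 and -0.33 to 0.66 for angp1 (g11921). Mean levels of the 22 members moved by less than 1 SD with TMM-scaled counts and with any eel left out. No paired analysis was possible because replicate numbers only name the eels, and nothing ties libraries of the same number to each other.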
